A study of Mus musculus with 10 samples.

Results

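The proteasome genes of sorted bone marrow plasma cells were compared between untreated mice and mice given rapamycin. Gene symbols made of Psm, a letter from a to g and a number were taken from the probe sets that carry 1 gene symbol, with the brightest probe set standing for a gene. The rule found 49 of 22180 genes. Of these, 47 encode subunits, assembly factors or regulators of the proteasome, and Psmc3ip and Psme3ip1, which are named for partners of proteasome proteins and are not subunits, were set aside. The study ran 10 Affymetrix arrays, 5 from untreated mice and 5 from mice treated with rapamycin, an inhibitor of mTOR complex 1. Each array held RNA of B220-negative, Blimp1-positive marrow plasma cells, collected into Trizol after cell sorting. All mice of both groups were of the strain B6.BLIMP1 +/GFP, in which GFP reports the Blimp1 locus, so that the untreated group carries the reporter allele too. Dose, length of treatment, age and sex are not in the labels. In bulk RNA of this kind, fewer cells of a type and less RNA per cell cannot be told apart.

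The proteasome degrades proteins that carry ubiquitin chains. Its barrel-shaped core has outer rings of alpha subunits and inner rings of beta subunits, of which Psmb5, Psmb6 and Psmb7 hold the cutting sites. In immune cells and after interferon these are replaced by Psmb8, Psmb9 and Psmb10, which form the immunoproteasome and favour peptides for MHC class I. A cap made of ATPases and non-ATPase subunits binds, unfolds and feeds in the substrate, and dedicated assembly factors build core and cap. Plasma cells, which make large amounts of antibody, are known for their sensitivity to proteasome inhibitors. In cell lines and mouse tissues mTOR complex 1 has been reported to act on proteasome gene expression through Nfe2l1 (NRF1).

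The signals are log2 values normalized with RMA, per the submitters' processing notes, and every difference below is rapamycin minus untreated on that scale. Of 47 proteasome genes 0 passed limma's test at an adjusted p under 0.05 (Benjamini-Hochberg over all genes), against 0.153% of all genes, and the smallest adjusted p was 0.297. At an unadjusted p under 0.05, 3 were higher (Psmb10, Psmd10 and Psmd9) and 0 were lower, where 6.13% of all genes were higher and 3.26% lower. Psmd10 was the 1 gene of the 47 whose groups did not overlap, with rapamycin higher, as for 1.48% of all genes, and 0 genes lay wholly lower, against 0.586%. The median difference over the 47 genes was 0.04, and over all genes it was 0.01. Positive differences were found for 32 of the 47 genes and for 53.1% of all genes. The 29 proteasome genes in the top signal decile of all genes are best read beside that decile, whose median difference was 0.02. Of these 29 genes 0 lay outside the decile's 5th to 95th percentile, -0.21 to 0.27. The median of 0.04 and the 32 positive differences cover all 47 genes, and neither was taken over the 29 alone.

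The intervals bound the difference in array signal between the groups, not the effect of rapamycin alone, since treatment and sex cannot be told apart. A shift common to all transcripts, which RMA hides, lies outside what they cover. Differences of the 47 genes ran from -0.25 for Psme2 to 0.26 for Psmd10, which is 1.19-fold in either direction. The 95% interval, taken gene by gene, lay between -0.5 and 0.5 for 46 of the 47 genes, and the exception was Psme2, whose interval reached -0.51. The median standard error was 0.09 for these genes and 0.10 for all genes. Spread within groups was also close to that of other genes, with a median SD of 0.13 in untreated and 0.11 in rapamycin arrays, against 0.14 in both groups for all genes.

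**Figure D1:**
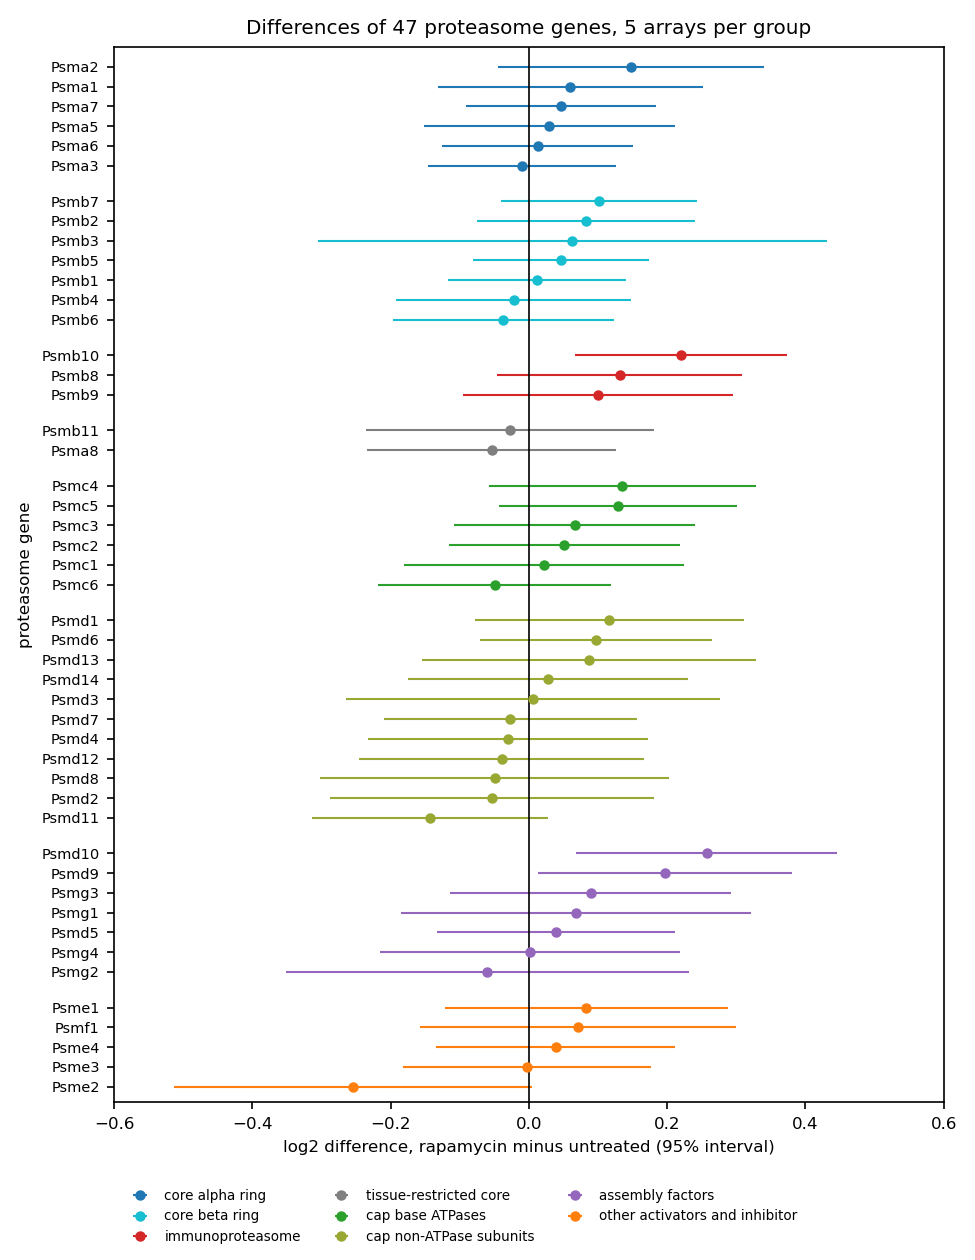
Log2 difference (x axis, rapamycin minus untreated) of the 47 proteasome genes (y axis), coloured by role. Points are limma estimates over 5 arrays per group and lines are 95% intervals. The intervals of Psmb10, Psmd10 and Psmd9 lie above 0, and those of the other 44 genes include 0.

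**Figure D2:**
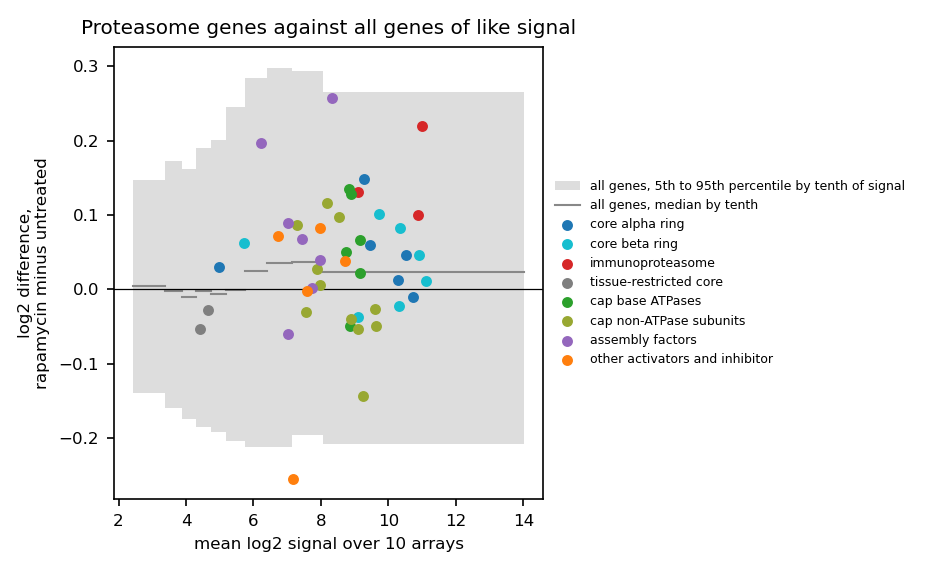
Log2 difference (y axis) against mean log2 signal over the 10 arrays (x axis) for the 47 proteasome genes, coloured by role. The grey band spans the 5th to 95th percentile of all genes in each decile of signal and the grey line is their median. Psme2 is the 1 proteasome gene below the band, and 0 lie above it.

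A few features of the arrays bear on these values. The plasma cell markers were bright on all arrays, with a mean over 11 measured markers of 10.88 to 10.98 in untreated and 10.92 to 11.07 in rapamycin arrays. Of these markers 10 had a positive difference, 2 were higher at an unadjusted p under 0.05 with groups that did not overlap, and 0 passed the test. Of all genes 53.1% had a positive difference, 6.13% were higher at that level and 1.48% lay wholly higher. The 2 markers were Prdm1, which encodes Blimp1, at 0.41 (adjusted p = 0.117 in limma), and Mzb1, a chaperone of antibody assembly, at 0.11 (adjusted p = 0.425). The part of the plasma cell markers in the proteasome values was not tested. The Y-linked gene Eif2s3y averaged 8.03 untreated and 3.84 with rapamycin, while Xist averaged 3.83 and 9.24, so that treatment and sex cannot be told apart in any comparison. Rapamycin replicate 4 stood apart on the first principal component of all genes, at 22.29 against 4.17 to 8.85 for the other rapamycin arrays. It also had the highest of the 10 values for 12 of the 47 proteasome genes, where no other array had more than 7. The median deviation of rapamycin replicate 4 from each gene's mean was 0.06 over the 47 genes. Over all genes it was 0.03, the highest such median of the 10 arrays. Untreated replicate 1 was at -1.16 on the first principal component, against -15.4 to -8.09 for the other untreated arrays. This array had the lowest of the 10 values for 16 of the 47 genes, and for 7 of the 17 cap genes. Its median deviation from each gene's mean was -0.12 over the 47 genes and -0.16 over the cap genes, whereas the median over all genes on that array was -0.01.

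**Figure D3:**
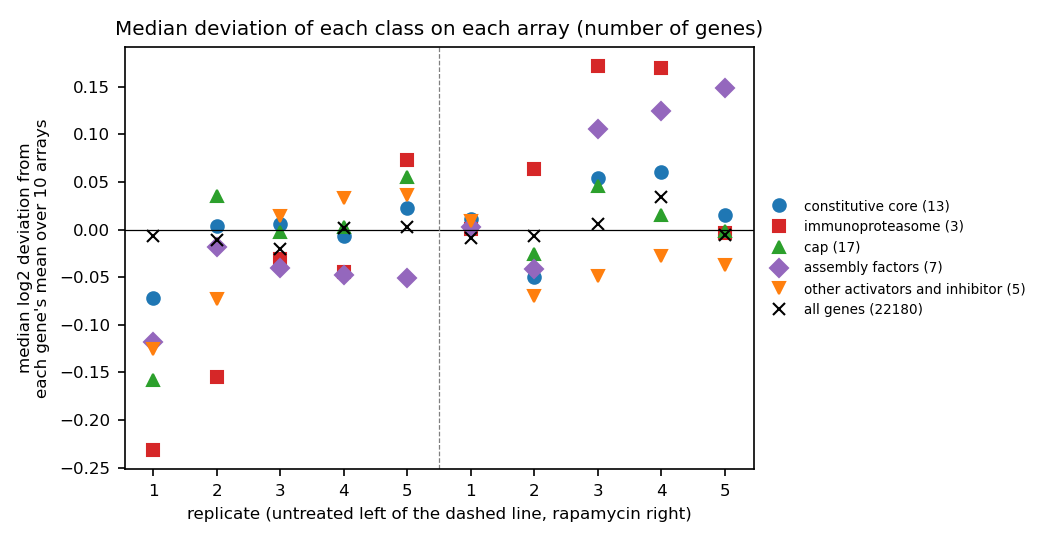
Median log2 deviation from each gene's mean over the 10 arrays (y axis), by array (x axis, replicates 1 to 5 of each group) and by class of proteasome gene, with the number of genes in the legend. Untreated replicate 1 is the lowest array for every class of proteasome gene shown, and no class parts the groups.

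All 3 subunits of the immunoproteasome were higher in rapamycin arrays on average, by 0.10 to 0.22, and none passed the test over all genes. Psmb10, which replaces Psmb7 at the trypsin-like site, had the smallest p of all 47 genes. Its values were 10.94, 10.96, 10.86, 10.76 and 10.98 in untreated replicates 1 to 5, and 11.01, 11.08, 11.23, 11.31 and 10.97 in rapamycin replicates 1 to 5. All 5 rapamycin arrays lay above the untreated mean, and the groups overlapped through rapamycin replicate 5, which was just under untreated replicate 5. The means were 10.90 ± 0.09 and 11.12 ± 0.14 (SD, n = 5 each), a difference of 0.22 (SE 0.07, adjusted p = 0.297 in limma). Without rapamycin replicate 4, the highest array, the difference was 0.17, and over all arrays left out in turn it ran from 0.17 to 0.26.

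Psmb8, which replaces the chymotrypsin-like subunit Psmb5, was at 8.84, 8.93, 9.11, 9.06 and 9.16 in untreated arrays and at 9.01, 9.15, 9.26, 9.25 and 9.08 in rapamycin arrays. The groups overlapped broadly, with untreated replicates 1 and 2 at the bottom and rapamycin replicates 3 and 4 at the top. The difference was 0.13 (95% interval -0.05 to 0.31, adjusted p = 0.687 in limma), and without untreated replicate 1, the lowest array, it was 0.085. Psmb9, which replaces Psmb6, was at 10.64, 10.60, 10.84, 10.82 and 11.19 in untreated arrays and at 10.87, 10.87, 10.92, 11.04 and 10.90 in rapamycin arrays. Untreated replicate 5 was the highest of the 10 arrays, and the other 4 untreated arrays all lay below the lowest rapamycin array. The difference of 0.10 (adjusted p = 0.816 in limma) was 0.19 without that array (adjusted p = 0.404), 0.046 without untreated replicate 2 and 0.055 without untreated replicate 1, so that any of 3 untreated arrays moved it by more than 1.5 times.

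The constitutive counterparts did not pass the test either. Psmb5 was at 10.73, 10.91, 10.98, 10.92 and 10.89 in untreated arrays and at 10.99, 10.93, 10.84, 10.97 and 10.95 in rapamycin arrays, a difference of 0.05 that was 0.007 without untreated replicate 1. Psmb6, the caspase-like subunit, was at 9.13, 9.01, 8.97, 9.13 and 9.27 against 8.995, 9.05, 9.13, 9.06 and 9.10, a difference of -0.04. Psmb7 was at 9.65, 9.63, 9.79, 9.58 and 9.72 against 9.87, 9.71, 9.78, 9.74 and 9.78, a difference of 0.10. In each of these genes the groups overlapped, and adjusted p in limma was 0.882, 0.935 and 0.704.

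Whether immunoproteasome subunits changed unequally with their counterparts was tested on the log2 ratio within an array, for 3 pairs. The ratio of Psmb8 to Psmb5 was higher with rapamycin by 0.08 (two-sided exact permutation p = 0.294), with 4 of 5 rapamycin arrays above the untreated mean. The ratio of Psmb9 to Psmb6 was higher by 0.14 (exact permutation p = 0.167, 5 of 5 arrays) and that of Psmb10 to Psmb7 by 0.12 (exact permutation p = 0.23, 3 of 5 arrays). After adjustment over the 3 pairs p was 0.294 for each, and 5 against 5 arrays allow a smallest p of 0.00794. With an array left out, the differences ran from 0.035 (without rapamycin replicate 3) to 0.13 for Psmb8 to Psmb5. They ran from 0.084 (without untreated replicate 1) to 0.19 for Psmb9 to Psmb6, and from 0.062 (without rapamycin replicate 4) to 0.17 for Psmb10 to Psmb7. Neutrophil markers, which belong to cells outside the sort gate, were higher on average with rapamycin. Of 18 measured markers 17 had a positive difference, 5 were higher at an unadjusted p under 0.05 and 0 passed the test. Of all genes 53.1% had a positive difference and 6.13% were higher at that level. The mean of the 18 markers per array ran from 5.95 to 6.53 in untreated and from 6.31 to 6.74 in rapamycin arrays. Among markers of eosinophils, basophils and mast cells 3 of 8 were positive. Of these 8 markers 1 passed, as did 0.153% of all genes, namely Prg2 at 0.42 (adjusted p = 0.0473 in limma). Prg2 averaged 12.51 in untreated arrays, where the next brightest of the 8 markers, Il5ra, averaged 7.31 and the dimmest, Fcer1a, 3.27. Whether the Prg2 signal came from the plasma cells or from other cells was not tested. Among B cell markers 4 of 10 were positive. The part of other cell types in the immunoproteasome values was not tested.

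**Figure D4:**
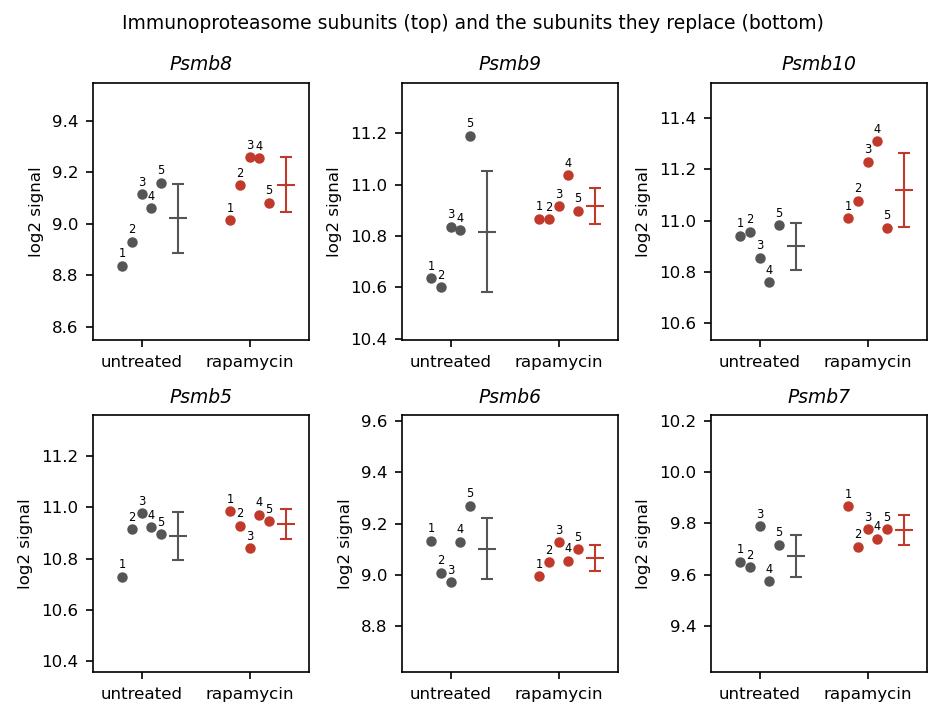
Log2 signal (y axis) of the immunoproteasome subunits (top row) and the constitutive subunits they replace (bottom row) in untreated (grey) and rapamycin (red) arrays. Points are arrays with their replicate number, and the bar beside them is mean ± SD (n = 5). Each panel spans 1 log2 unit, and the groups overlap in all 6 panels.

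The promoters of the cutting subunits are shown for the 5 that the promoter table holds, Psmb7 being the exception, because they carry the comparison of immunoproteasome and constitutive core. They are RefSeq sequences of build GRCm38.p6, from 250 bases before to 50 after the gene's start, at chr14:54617946-54618245 (minus strand), chr11:70525107-70525406 (plus strand), chr17:34197945-34198244 (plus strand), chr17:34187281-34187580 (minus strand) and chr8:105938343-105938642 (minus strand). Capitals mark matches to 4 motifs searched on both strands.
Psmb5: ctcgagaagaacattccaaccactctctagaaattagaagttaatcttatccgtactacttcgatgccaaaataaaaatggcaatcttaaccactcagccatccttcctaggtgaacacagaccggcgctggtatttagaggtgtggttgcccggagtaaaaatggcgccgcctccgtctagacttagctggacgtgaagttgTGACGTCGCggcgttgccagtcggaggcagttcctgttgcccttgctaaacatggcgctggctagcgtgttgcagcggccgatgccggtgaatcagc
Psmb6: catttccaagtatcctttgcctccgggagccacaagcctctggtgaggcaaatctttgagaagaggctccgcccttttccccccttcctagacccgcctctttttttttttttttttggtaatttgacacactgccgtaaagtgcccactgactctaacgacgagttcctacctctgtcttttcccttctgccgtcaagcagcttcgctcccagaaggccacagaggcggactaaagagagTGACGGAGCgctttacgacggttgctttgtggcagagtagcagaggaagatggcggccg
Psmb8: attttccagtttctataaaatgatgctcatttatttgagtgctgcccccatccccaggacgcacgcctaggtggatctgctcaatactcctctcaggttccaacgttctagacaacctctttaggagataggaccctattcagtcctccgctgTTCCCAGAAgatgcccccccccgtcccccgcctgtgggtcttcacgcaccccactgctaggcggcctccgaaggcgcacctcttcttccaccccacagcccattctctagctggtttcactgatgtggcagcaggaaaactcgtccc
Psmb9: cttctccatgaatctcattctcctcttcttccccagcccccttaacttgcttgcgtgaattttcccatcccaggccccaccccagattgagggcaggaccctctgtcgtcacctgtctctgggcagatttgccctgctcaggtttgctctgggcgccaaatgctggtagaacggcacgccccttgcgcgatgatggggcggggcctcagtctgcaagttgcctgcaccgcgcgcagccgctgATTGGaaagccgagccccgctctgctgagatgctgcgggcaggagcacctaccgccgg
Psmb10: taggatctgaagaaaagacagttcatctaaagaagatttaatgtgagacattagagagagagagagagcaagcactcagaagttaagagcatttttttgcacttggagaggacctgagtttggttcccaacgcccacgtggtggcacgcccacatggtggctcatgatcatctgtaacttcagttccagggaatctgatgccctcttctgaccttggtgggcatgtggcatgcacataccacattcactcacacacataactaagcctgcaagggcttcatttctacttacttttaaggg
The motifs were CCAAT, the box bound by NF-Y, TGACNNNGC, a core of the antioxidant response element bound by Nfe2l1 and Nfe2l2, the core of the interferon-stimulated response element (ISRE), and TTCNNNGAA, a palindrome found in interferon-responsive promoters. Psmb5 held TGACNNNGC at position -47 from its start and Psmb6 at position -9. Psmb8 held TTCNNNGAA at position -97, and Psmb9 held CCAAT on the opposite strand at position -8. Psmb10 held none of the 4 motifs in this window. Promoters were found for 39 of the 47 genes. CCAAT lay in 14 of the 39 (35.9%), against 41.1% of all genes with a promoter. TGACNNNGC lay in 6 (15.4%), against 14% of all, the ISRE core in 5 (12.8%), against 3.99%, and TTCNNNGAA in 3 (7.69%), against 9.55%. No matches of different motifs overlapped in these 39 genes, and a match is a run of letters, not a shown binding site.

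The constitutive core genes, which form the rings, showed little difference between the groups. They number 13 and include Psmb5, Psmb6 and Psmb7. Of the 13 genes 10 had a positive difference, 0 passed at an unadjusted p under 0.05 in either direction, and the median difference was 0.05. Without untreated replicate 1 this median was 0.0077, and without rapamycin replicate 4 it was 0.0079. Among the alpha subunits, which gate the barrel, Psma2 had the smallest p. It was at 9.33, 9.16, 9.14, 9.09 and 9.29 in untreated and at 9.17, 9.16, 9.46, 9.57 and 9.38 in rapamycin arrays. Rapamycin replicates 3, 4 and 5 were above every untreated array and replicates 1 and 2 were within the untreated range. The difference was 0.15 (95% interval -0.04 to 0.34, adjusted p = 0.672 in limma), and without rapamycin replicate 4, the highest array, it was 0.093.

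The other alpha subunits differed by 0.06 for Psma1, 0.05 for Psma7, 0.03 for Psma5, 0.01 for Psma6 and -0.01 for Psma3. Psma5 lay at 4.96 in untreated arrays on the brighter of its 2 probe sets, close to the array medians of 4.92 to 4.99, so that its small difference rests on a dim signal. Psma4, the remaining alpha subunit, has only probe sets shared with the symbol AY074887 and is not among the 47 genes. The brighter of these averaged 8.68 ± 0.07 untreated and 8.78 ± 0.11 with rapamycin (SD, n = 5 each). Among the beta subunits without a cutting site, differences were 0.08 for Psmb2, 0.06 for Psmb3, 0.01 for Psmb1 and -0.02 for Psmb4. Psmb3 had a spread of 0.35 (SD) in each group, the widest among the beta subunits. Psma8, which replaces Psma7 in testis, and Psmb11, the subunit of thymic epithelium, were at 4.43 and 4.66 in untreated arrays, below the array medians, and differed by -0.05 and -0.03.

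The cap genes did not move in one direction. Of 17 cap genes 10 had a positive and 7 a negative difference, 0 passed at an unadjusted p under 0.05, and the median was 0.02. The ATPases of the base, which unfold the substrate, had a median difference of 0.06, with 5 of 6 positive. Psmc5 was at 8.62, 8.92, 8.85, 8.82 and 8.86 in untreated and at 9.09, 8.91, 8.97, 8.95 and 8.80 in rapamycin arrays. Psmc4 was at 8.91, 8.66, 8.51, 8.85 and 8.89 against 8.82, 8.99, 9.01, 8.82 and 8.85. The groups overlapped in both genes, which differed by 0.13 and 0.14 (adjusted p = 0.682 and 0.714 in limma). The Psmc5 difference was 0.081 without untreated replicate 1, and that of Psmc4 was 0.071 without untreated replicate 3. The other ATPase genes differed by 0.07 for Psmc3, 0.05 for Psmc2, 0.02 for Psmc1 and -0.05 for Psmc6. The dimmer probe set of Psmc2, at 6.52 in untreated arrays, differed by 0.28 (SE 0.24).

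The 11 non-ATPase subunits, which include the ubiquitin receptor Psmd4 and the deubiquitinase Psmd14, had a median difference of -0.03, with 5 positive and 6 negative. Psmd11, a subunit of the lid, had the smallest p of the cap genes. It was at 9.14, 9.48, 9.38, 9.25 and 9.37 in untreated and at 9.26, 9.23, 9.08, 9.08 and 9.24 in rapamycin arrays. All 5 rapamycin arrays lay below the untreated mean, but untreated replicate 1 was lower than 3 of them. The difference was -0.14 (adjusted p = 0.635 in limma), and without untreated replicate 1, the array that is low for many cap genes, it was -0.19 (adjusted p = 0.449). The scaffold subunits Psmd1 and Psmd2 differed by 0.12 and -0.05, the ubiquitin receptor Psmd4 by -0.03 and the deubiquitinase Psmd14 by 0.03. Differences were 0.10 for Psmd6, 0.09 for Psmd13, 0.01 for Psmd3, -0.03 for Psmd7, -0.04 for Psmd12 and -0.05 for Psmd8, all of them subunits of the lid.

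Of 7 assembly factors 0 passed the test over all genes, and 2 (Psmd10 and Psmd9) were higher at an unadjusted p under 0.05, a level that 6.13% of all genes met. Psmd9 no longer met it in 7 of the 10 fits that left out an array. Both genes encode chaperones of the cap base, which bind the ATPases while the ring forms. Psmd10 (gankyrin), which binds the ATPase Psmc4, was at 8.20, 8.22, 8.25, 8.25 and 8.11 in untreated and at 8.34, 8.35, 8.36, 8.53 and 8.73 in rapamycin arrays. The groups did not overlap, and rapamycin replicates 4 and 5 were the highest. Means were 8.21 ± 0.06 and 8.46 ± 0.17 (SD, n = 5 each), a difference of 0.26 (SE 0.09, adjusted p = 0.333 in limma). Psmd10 is the 1 gene of the 47 on the X chromosome, and for it, too, treatment and sex cannot be told apart. Among 899 X-linked genes the median difference was 0.01, 12 were wholly higher and 2 wholly lower with rapamycin. Of all genes, 1.48% were wholly higher and 0.586% wholly lower.

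Psmd9, a base chaperone as well, was at 6.30, 6.12, 6.11, 6.06 and 6.07 in untreated and at 6.32, 6.19, 6.37, 6.46 and 6.29 in rapamycin arrays. Untreated replicate 1 was higher than the other untreated arrays and above rapamycin replicates 2 and 5. The difference was 0.20 (SE 0.09, adjusted p = 0.494 in limma). In the 7 fits in which its unadjusted p was above 0.05 with an array left out, that p was 0.0541 to 0.0845. It was also above 0.05 with the replicate number as a block (0.063), after a further quantile normalization (0.0722) and in the filtered table (0.11). It stayed under that level without untreated replicate 1 or rapamycin replicate 2 or 5. The other base chaperone, Psmd5, differed by 0.04. The chaperones of the core, which guide the alpha ring, differed by 0.09 for Psmg3, 0.07 for Psmg1 and 0.002 for Psmg4. Psmg2, on the brighter of its 2 probe sets, differed by -0.06, and its dimmer probe set differed by 0.06. Over the 7 assembly factors 6 differences were positive, with a median of 0.07, which was 0.015 without untreated replicate 1 and 0.125 without untreated replicate 5.

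The promoters of Psmd10 and Psmd9 are given for these 2 genes, with the same capitals, build and window, at chrX:140956662-140956961 (minus strand) and chr5:123227940-123228239 (plus strand).
Psmd10: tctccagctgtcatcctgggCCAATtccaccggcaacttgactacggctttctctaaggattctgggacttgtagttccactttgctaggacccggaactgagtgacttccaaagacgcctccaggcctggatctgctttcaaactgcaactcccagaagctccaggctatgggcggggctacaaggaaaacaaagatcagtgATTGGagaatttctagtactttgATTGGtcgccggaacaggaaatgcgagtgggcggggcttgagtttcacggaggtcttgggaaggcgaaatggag
Psmd9: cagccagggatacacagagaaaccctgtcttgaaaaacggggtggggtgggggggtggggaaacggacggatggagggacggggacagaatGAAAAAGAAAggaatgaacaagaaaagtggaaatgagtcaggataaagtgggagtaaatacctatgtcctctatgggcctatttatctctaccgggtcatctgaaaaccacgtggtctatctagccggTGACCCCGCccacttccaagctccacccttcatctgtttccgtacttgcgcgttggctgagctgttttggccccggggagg
Psmd10 held CCAAT at position -230 and, on the opposite strand, at positions -47 and -24. Psmd9 held TGACNNNGC at position -31 and the ISRE core at position -159. The 2 genes shared no motif of the 4 searched.

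None of the activators that bind the core in place of the cap passed the test. Psme1 and Psme2 encode the alpha and beta subunits of PA28, an interferon-inducible activator that works with the immunoproteasome. Psme1 was at 7.85, 8.02, 7.86, 7.94 and 8.01 in untreated and at 7.98, 7.86, 8.11, 8.30 and 7.84 in rapamycin arrays. Psme2 was at 7.56, 7.06, 7.19, 7.21 and 7.51 against 7.35, 7.11, 7.05, 6.99 and 6.76. The groups overlapped in both, with rapamycin replicate 5 the lowest array for Psme2 and for Psme1. The differences were 0.08 for Psme1 (adjusted p = 0.866 in limma) and -0.25 for Psme2 (SE 0.12, unadjusted p = 0.0537 and adjusted p = 0.546 in limma), and the difference between them was not tested. Without rapamycin replicate 4, the highest array for Psme1, the Psme1 difference was 0.012 (adjusted p = 0.984 in limma). Another probe set, whose annotation names Psme2 together with 9930111J21Rik1 and 9930111J21Rik2, differed by -0.17 (SE 0.12). It was brighter, at 8.96 in untreated arrays, where the probe set used for Psme2 averaged 7.31. With an array left out, the Psme2 difference ran from -0.33 without rapamycin replicate 1 (adjusted p = 0.404 in limma) to -0.18 without rapamycin replicate 5 (adjusted p = 0.74) and was -0.19 without untreated replicate 1. Psme3, the nuclear activator, differed by -0.002, Psme4, a large activator with a role in sperm histone removal, by 0.04 and Psmf1, an inhibitor of the core known as PI31, by 0.07.

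**Figure D5:**
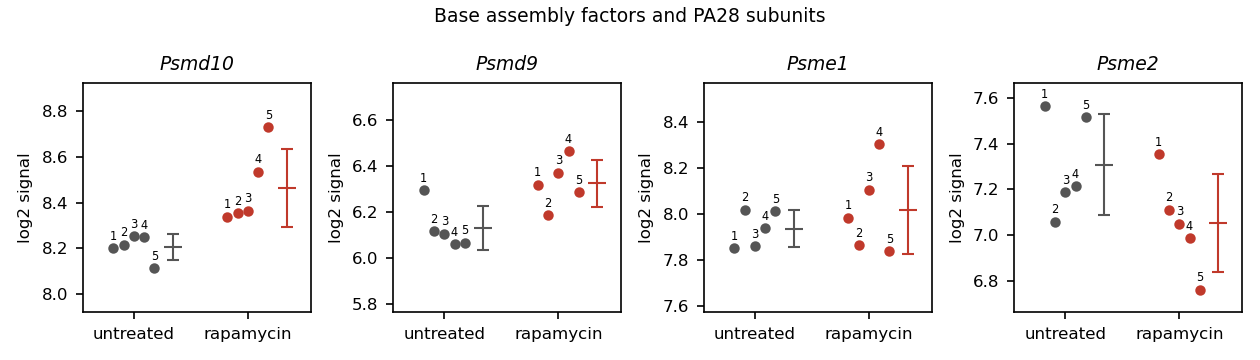
Log2 signal (y axis) of the base chaperones Psmd10 and Psmd9 and of the PA28 subunits Psme1 and Psme2 in untreated (grey) and rapamycin (red) arrays. Points are arrays with their replicate number, and the bar beside them is mean ± SD (n = 5). Only in Psmd10, of these 4 genes, do the groups not overlap.

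Genes that work with the proteasome were taken from lists drawn up by function. Of 18 measured partners, such as shuttle factors, deubiquitinases and the segregase Vcp, 0 passed the test over all genes, 0 passed at an unadjusted p under 0.05, and the median difference was -0.04. The smallest p were those of the shuttle Ubqln1 (-0.16), the deubiquitinase Uchl5 (0.16), the import factor Ipo9 (0.19) and Sem1, a small lid subunit (0.09). Pomp, the maturation factor of the core, differed by -0.12 and Vcp by -0.12. Adrm1, a ubiquitin receptor of the cap, was not analysed here, since no probe set carried its symbol alone.

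Of 13 measured regulators of proteasome genes 0 passed over all genes, and 2 were lower and 0 higher at an unadjusted p under 0.05. At that level 3.26% of all genes were lower and 6.13% higher. Both lower genes encode small Maf proteins, which pair with Nfe2l1 and Nfe2l2 on DNA. Mafg was at 6.58, 6.30, 6.34, 6.45 and 6.32 in untreated and at 6.06, 6.25, 5.94, 5.89 and 6.22 in rapamycin arrays, so that the groups did not overlap. Rapamycin arrays lay wholly lower for 0.586% of all genes. The Mafg difference was -0.33 (SE 0.10, adjusted p = 0.237 in limma), and Mafk differed by -0.28 (adjusted p = 0.363). The third small Maf gene, Maff, differed by 0.11. Nfe2l1, the main inducer of proteasome genes, differed by -0.01, and Nfe2l2 by -0.21 (adjusted p = 0.575 in limma). Stat3 differed by -0.07 and Keap1, which holds Nfe2l2 in check, by 0.10.

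The immunoproteasome shares its inducers and its pathway with the class I peptide machinery, and Tap1 and Tap2 lie with Psmb8 and Psmb9 on chromosome 17. Of 10 measured genes of that list 0 passed over all genes and 1 was lower at an unadjusted p under 0.05, as were 3.26% of all genes. It was Calr, a lectin chaperone, by -0.26 (adjusted p = 0.0913 in limma). The peptide transporter genes Tap1 and Tap2 differed by -0.07 and 0.11, Tapbp, which bridges transporter and class I, by 0.14, and B2m, the light chain of class I, by -0.06. Irf1, the interferon regulatory factor that induces immunoproteasome genes, was at 6.84, 6.89, 7.07, 7.26 and 6.92 in untreated and at 6.86, 6.80, 6.80, 6.85 and 6.81 in rapamycin arrays. All 5 rapamycin arrays lay below the untreated mean, and the difference was -0.17 (adjusted p = 0.609 in limma). The median difference of the list was -0.01, against 0.13 for the 3 immunoproteasome genes, which was 0.085 without untreated replicate 1.

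Psmc3ip, a factor of meiotic recombination, and Psme3ip1, a partner of Psme3, are the 2 symbols that match the rule without being proteasome genes. They differed by 0.04 and 0.07, with adjusted p of 0.948 and 0.84 in limma.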

How the data were processed

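The 10 arrays, 5 per group by their titles, came from separate mice per the series' design text. The authors deposited log2 values from RMA (per the submitters' processing notes), whose version and level of summary, like the genome build, the labels do not state. RMA quantile normalization hides a shift common to all transcripts. The value table has 41345 rows, and the deposited filtered table holds 12280 of them with equal values (tolerance 1e-06); its rule was not given. Probe sets were named from platform annotation, with 1 symbol for 23521 and several for 1820.

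Genes were fitted with limma 3.58.1 in R 4.3.3 (lmFit, eBayes with intensity trend, two-sided, no covariate, no filter on dim genes), with Benjamini-Hochberg adjustment over 22180 genes. Adjusted p-values and intervals of single genes are from this fit. The fit was tested on simulated data. Ratios within arrays were tested by exact permutation (scipy 1.17.1). Values in every array are given for Psmb5 to Psmb10, Psme1, Psme2 and the 10 genes with the smallest p; of other lists, the 4 with the smallest p and Pomp, Nfe2l1, Tap1 and Irf1, and further genes were named for their role after their values were seen. The number of arrays limits precision. Members, lists and tests were chosen with earlier results of these data known. Alternatives were the replicate number as a block, the trend, weights per array, probe set choice, dim genes, the filtered table, normalization, the threshold, leaving out each array and, added after seeing the data, genes off the X and Y chromosomes.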

Additional observations from a re-analysis of the deposited data

Results flagged for a closer look

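Arrays that lay far from the other 4 of their group were sought in 94 sets of 5 values, 2 groups of the 47 genes. The criterion was a gap to the nearest array above 0.71 of the group's range, which chance meets in about 1 of 20 sets, and 7 were found. Of these, 4 were in untreated replicate 1. There Psma1 was at 9.15 with the nearest array at 9.46, Psmb4 at 10.08 with the nearest at 10.33, Psmg2 at 6.75 with the nearest at 7.07, and Psmd9 at 6.30 with the nearest at 6.12. In rapamycin replicate 4 Psmc2 was at 8.96 with the nearest at 8.75, and Psmd2 was at 8.77 with the nearest at 9.09. Psmg4 was at 7.91 in untreated replicate 2 with the nearest at 7.69.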

How the results depend on the processing

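No proteasome gene passed an adjusted p under 0.05 in any alternative run, nor under 0.1 in the main setting, and the smallest adjusted p of a proteasome gene was 0.199, for Psmb10 among genes above the median signal only. The count higher at an unadjusted p under 0.05, 3 in the main setting, was 2 to 3 with an array left out (Psmd9 dropped out in 7 of 10 fits, and Psmb9 joined without untreated replicate 5) and 0 in the filtered table, which holds 17 of the 47 genes and neither Psmb10 nor Psmd10. The count lower, 0 in the main setting, was 1 (Psme2) with no intensity trend and 1 (Psme2) after a further quantile normalization. With an array left out it was 0 to 1, namely Psme2 without untreated replicate 2 or 3 or rapamycin replicate 1, and Psmd11 without untreated replicate 1. Without genes on X and Y the genes higher were Psmb10 and Psmd9.

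The median of the assembly factors moved from 0.068 to 0.026 after a further quantile normalization. With an array left out it ran from 0.015 to 0.125, and that of the constitutive core from 0.0077 to 0.064, at its lowest without untreated replicate 1 and near it, at 0.0079, without rapamycin replicate 4. The cap median changed sign, to -0.001 after quantile normalization and to as low as -0.01 with an array left out. The Psmb6 difference, not called, ran from -0.070 to 0.0047 with an array left out. The immunoproteasome median ran from 0.085 to 0.19. With an array left out the 3 ratios stayed positive, from 0.035 to 0.13, 0.084 to 0.19 and 0.062 to 0.17, with adjusted p of 0.19 to 0.587.

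Same-numbered arrays did not deviate together across genes (r of -0.07 to 0.05), so that the numbers are not taken to pair the mice. With the replicate block the calls over all genes were 21 in place of 34, no proteasome gene passed, and Psmb10 and Psmd10 were higher at an unadjusted p under 0.05. The ratios kept their values (0.08, 0.14 and 0.12). Their adjusted p of 0.438 came from an exact sign-flip test of the differences between same-numbered arrays. With so few pairs that test cannot give a p under 0.05, so that nothing is concluded from it. The causes were not tested.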
